A study of Rattus norvegicus with 26 samples.

Results

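The genes of 6 RNA-binding proteins were followed in the hippocampus of aging rats on diets that differed in vitamin D3: *Rbm5*, *Rbm6*, *Rbm10*, *Rbm28*, *Tia1* and *Tial1*. A gene was taken if a probe set, the group of probes that gives 1 value, carried its symbol alone, and the probe set of highest mean stood for the gene. This held for 5 of the 6, each with 1 probe set, out of 14506 genes with such a probe set, and all 5 passed the intensity filter that left 8485 tested genes. *Tial1* had no probe set of its own and is not reported further. *Rbm5*, *Rbm28* and *Tia1* were chosen by earlier results of these same data, the diet contrasts that had placed them among the genes with the lowest means on the high diet, and the others because they are relatives of these. Their values by diet are therefore a description, without a test.

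RNA was measured with 1 Affymetrix Rat Gene 1.0 ST array per animal in 26 male Fisher 344 rats aged 18 months. For 5 to 6 months they had eaten a purified diet holding 100 IU of vitamin D3 per kg (low, 8 rats), 1000 IU (control, 9 rats) or 10000 IU (high, 9 rats). All rats shared strain, sex, age and diet base, and they were housed in pairs, with a tail mark on 1 of the mates. The mean correlation of an array with all others lay between 0.9965 and 0.9977 over the groups. How many arrays there are sets the precision.

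RNA-binding proteins with RNA recognition motifs steer how a transcript is spliced, kept or translated. RBM5, RBM6 and RBM10 are related splicing regulators that, in human cells, act on the choice of exons in transcripts of cell death and growth genes. TIA1 helps the spliceosome to recognise weak splice sites, holds back translation of transcripts with AU-rich elements and gathers in stress granules when translation stalls. RBM28 differs from these, as a nucleolar protein whose yeast counterpart Nop4 is needed to build the large ribosomal subunit. A probe set value is 1 level per gene, so exon choice cannot be read from it. In tissue RNA, fewer cells of a type and less RNA per cell cannot be told apart.

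In the RefSeq annotation of the rat assembly GRCr8, *Rbm5* (chr8:117298866-117328107) and *Rbm6* (chr8:117327607-117431397) are neighbours on the minus strand whose intervals overlap by 501 bases. *Rbm10* lies on chrX:4093914-4126060, *Rbm28* on chr4:58688337-58727312, both on the minus strand, and *Tia1* on the plus strand at chr4:120410180-120440676. The RefSeq windows from 250 bases before to 50 bases after the transcript start are shown for the 3 chosen genes, because the receptor of the vitamin binds DNA. The start is that of the RefSeq transcript in the table and lies inside the gene interval for all 3. Capitals mark the hexamer AGGTCA, with its relatives AGTTCA and also GGGTCA and also GGTTCA, on either strand. These are some of the hexamers that the vitamin D receptor recognises in its direct repeats, and other forms were not searched. The windows are chr8:117327657-117327956 (minus strand), chr4:58726919-58727218 (minus strand) and chr4:120410023-120410322 (plus strand).
Rbm5: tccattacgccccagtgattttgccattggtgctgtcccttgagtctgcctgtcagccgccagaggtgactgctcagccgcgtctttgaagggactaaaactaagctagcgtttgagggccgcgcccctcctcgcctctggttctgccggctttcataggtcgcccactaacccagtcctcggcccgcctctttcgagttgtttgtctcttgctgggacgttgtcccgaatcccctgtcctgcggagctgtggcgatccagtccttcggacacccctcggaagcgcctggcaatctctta
Rbm28: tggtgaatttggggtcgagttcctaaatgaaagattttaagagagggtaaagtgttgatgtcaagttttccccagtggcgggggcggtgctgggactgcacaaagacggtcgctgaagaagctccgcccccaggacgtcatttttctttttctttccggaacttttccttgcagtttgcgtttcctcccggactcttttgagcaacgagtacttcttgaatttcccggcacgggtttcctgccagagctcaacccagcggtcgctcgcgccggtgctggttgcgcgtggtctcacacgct
Tia1: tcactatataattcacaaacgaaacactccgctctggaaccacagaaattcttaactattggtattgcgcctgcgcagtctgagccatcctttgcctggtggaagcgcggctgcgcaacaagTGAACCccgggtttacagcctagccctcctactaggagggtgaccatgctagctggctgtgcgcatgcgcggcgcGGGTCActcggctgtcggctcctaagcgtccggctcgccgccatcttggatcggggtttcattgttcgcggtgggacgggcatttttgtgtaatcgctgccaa

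The windows of *Rbm5* and *Rbm28* held 0 of these hexamers, and that of *Tia1* held 2 of them, beginning 128 and 53 bases before the start. Of 33469 windows of 300 bases in the same table, 44.4% held at least 1 hexamer and 0.0986% a direct repeat with a spacing of 3 bases. The *Rbm5*, *Rbm28* and *Tia1* windows held no such repeat, which says only that repeats of the 4 hexamers searched are absent there. The 3 windows had GC contents of 59.3%, 53.7% and 56.7%, with 20, 21 and 24 CpG dinucleotides. The *Rbm5* window lies wholly inside the annotated interval of *Rbm6*.

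*Rbm5* had a lower mean on the high diet than on either of the other diets, while its low and control means were nearly equal. Its log2 values had a lowest, median and highest of 10.20, 10.22 and 10.29 on low, 10.14, 10.21 and 10.31 on control, and 10.09, 10.15 and 10.18 on high. All 9 high-diet rats lay below every low-diet rat, with a gap of 0.011 log2 between the nearest 2, and 4 of the 9 lay below every control rat. Among the 8485 tested genes, the high and low arrays did not overlap for 0.0118%, which is *Rbm5* alone, and the high and control arrays for 0%. Because the contrasts with the high diet had entered the choice of *Rbm5*, nothing is read from this. With quantile normalization the gap of *Rbm5* closed, at -0.0093 log2, and 8 of 9 high-diet rats lay below the low-diet rats. Means were 10.22 ± 0.03, 10.23 ± 0.05 and 10.14 ± 0.03 on low, control and high (SD, n = 8, 9 and 9). High minus low was -0.085 log2 (SE 0.022, 95% interval -0.13 to -0.039), a change of -5.71% in level, and high minus control was -0.086 (SE 0.022, interval -0.13 to -0.042).

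*Tia1* had the same order, with high lowest and the low and control rats together. Its lowest, median and highest values were 10.12, 10.23 and 10.33 on low, 10.16, 10.25 and 10.29 on control, and 10.08, 10.12 and 10.23 on high. Of the 9 high-diet rats, 5 lay below every low-diet rat and 6 below every control rat, so the groups overlapped in part. Means were 10.23 ± 0.06, 10.24 ± 0.05 and 10.14 ± 0.05 on low, control and high (SD, n = 8, 9 and 9). High minus low was -0.088 log2 (SE 0.028, interval -0.15 to -0.031) and high minus control -0.096 (SE 0.027, interval -0.15 to -0.040).

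*Rbm28* had a low mean level, at percentile 8.56 of the tested genes, against a filter floor of 6.94 log2. It had the widest scatter between rats and the lowest high-minus-control difference of the 5 genes. Its lowest, median and highest values were 7.33, 7.45 and 7.61 on low, 7.35, 7.53 and 7.65 on control, and 7.22, 7.39 and 7.47 on high. Only 3 of the 9 high-diet rats lay below every low-diet rat, and 3 below every control rat, although all 9 lay below the control mean. Means were 7.47 ± 0.08, 7.53 ± 0.10 and 7.36 ± 0.08 on low, control and high (SD, n = 8, 9 and 9). High minus control was -0.17 log2 (SE 0.041, interval -0.26 to -0.088), a change of -11.2% in level, and high minus low was -0.11 (SE 0.042, interval -0.19 to -0.021).

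*Rbm6*, which adjoins *Rbm5* in the genome, had another order of diets: its mean was highest on low, and its high and control means were nearly equal. Its lowest, median and highest values were 9.58, 9.64 and 9.74 on low, 9.51, 9.60 and 9.62 on control, and 9.49, 9.58 and 9.69 on high. Of the high-diet rats, 5 of 9 lay below every low-diet rat but 1 of 9 below every control rat. Means were 9.65 ± 0.05, 9.59 ± 0.04 and 9.59 ± 0.06 on low, control and high (SD, n = 8, 9 and 9). Low minus control was +0.056 log2 (SE 0.026, interval 0.0030 to 0.11), high minus low -0.060 (SE 0.026, interval -0.11 to -0.0077) and high minus control -0.0047 (SE 0.025, interval -0.056 to 0.046).

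*Rbm10*, the X-linked relative of *Rbm5*, had nearly the same mean on every diet. Its lowest, median and highest values were 9.14, 9.18 and 9.26 on low, 9.08, 9.19 and 9.29 on control, and 9.05, 9.21 and 9.25 on high, with all groups overlapping. Means were 9.19 ± 0.05, 9.19 ± 0.07 and 9.19 ± 0.06 on low, control and high (SD, n = 8, 9 and 9). High minus low was -0.0019 log2, with an interval from -0.064 to 0.061, and high minus control -0.0024, with an interval from -0.063 to 0.058. A difference of the size seen for *Rbm5* lies outside both intervals of *Rbm10*. The contrasts that gave that size had chosen *Rbm5*, so this is a description and no test of *Rbm10* against *Rbm5*.

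**Figure D1:**
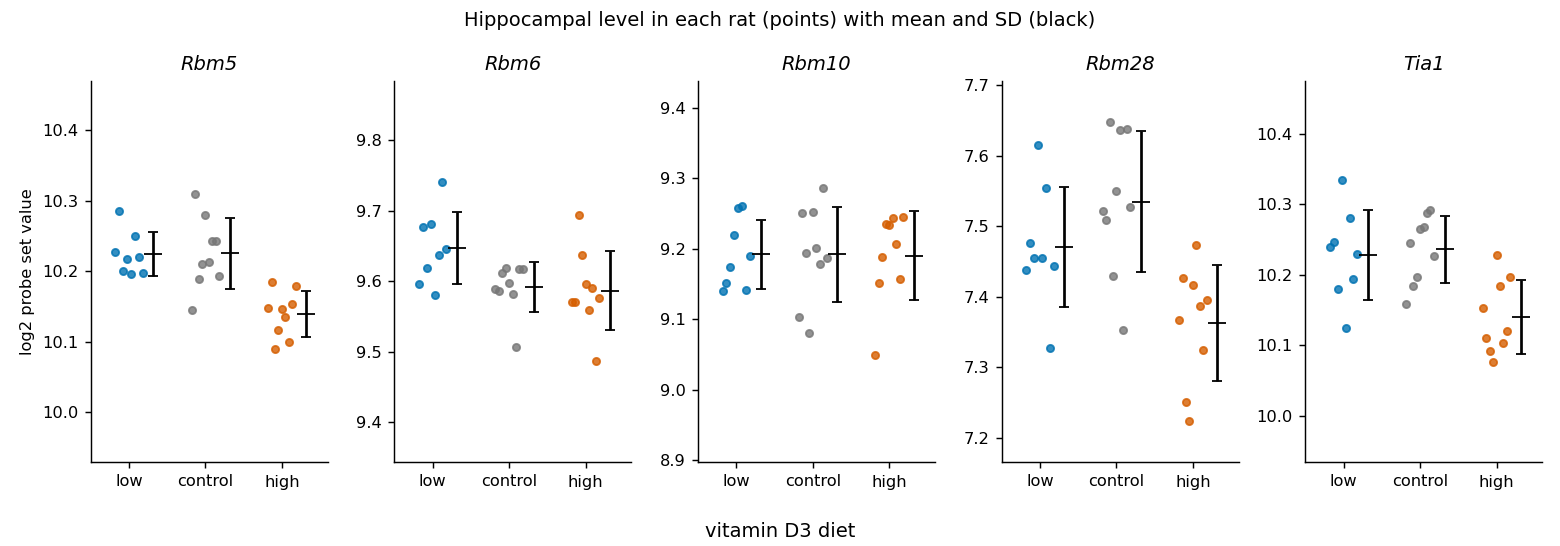
Log2 probe set values of the 5 genes in each rat (points) by diet, with the mean and SD of each diet in black, every panel spanning the same log2 range. High-diet points sit low for Rbm5, Rbm28 and Tia1, low-diet points sit high for Rbm6, and Rbm10 shows 3 overlapping groups.

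**Figure D2:**
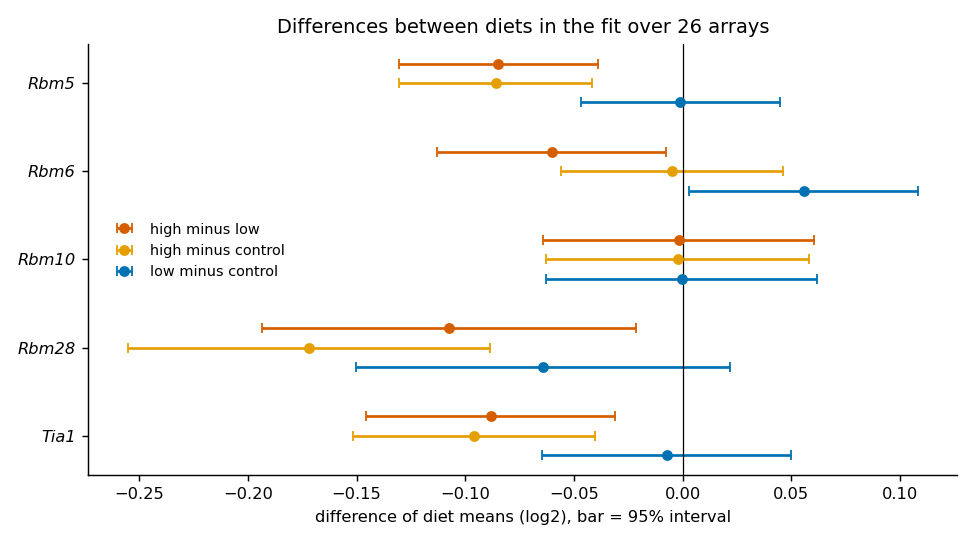
Differences of diet means on the log2 scale with their 95% intervals from the fit over 26 arrays. Rbm5, Rbm28 and Tia1 lie left of 0 in both contrasts with the high diet, while all 3 contrasts of Rbm10 lie near 0.

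In order of level, each of *Rbm5* and *Tia1* had low and control as neighbours that differed by less than the SD of either group, with low minus control at -0.0011 log2 (SE 0.022) for *Rbm5* and -0.0074 (SE 0.028) for *Tia1*. For *Rbm28* the neighbours low and control differed by -0.064 (SE 0.042), within the SD of either group. For *Rbm6* the neighbours control and high, and for *Rbm10* all neighbours, likewise differed by less than the SD of either group.

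Set against all genes, the shifts of the 3 chosen genes stood at the low end in the contrasts with the high diet, which had entered their choice. *Rbm10* lay near the middle in both, and *Rbm6* only in high minus control. In high minus control, *Rbm28* had the 12th lowest difference of all tested genes, at percentile 0.141, with *Tia1* at 1.69, *Rbm5* at 2.52, *Rbm6* at 43.8 and *Rbm10* at 46.6. In high minus low the percentiles were 1.41 for *Rbm28*, 2.66 for *Tia1*, 3.01 for *Rbm5*, 7.31 for *Rbm6* and 43.1 for *Rbm10*. In low minus control *Rbm6* stood toward the high end, at percentile 95.8. The place of *Rbm5* in rankings that weigh the difference by its error came with a small spread. Its SD within diets was 0.039 log2, at percentile 3.55 of all genes, against a median of 0.076. The SD within diets was 0.048 for *Rbm6*, 0.055 for *Tia1*, 0.061 for *Rbm10* and 0.090, at percentile 67.8, for *Rbm28*. In rank of the moderated F-test over the 3 diets, on which the choice rested in part, *Rbm5* stood at 5, *Rbm28* at 8, *Tia1* at 17, *Rbm6* at 392 and *Rbm10* at 8461.

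**Figure D3:**
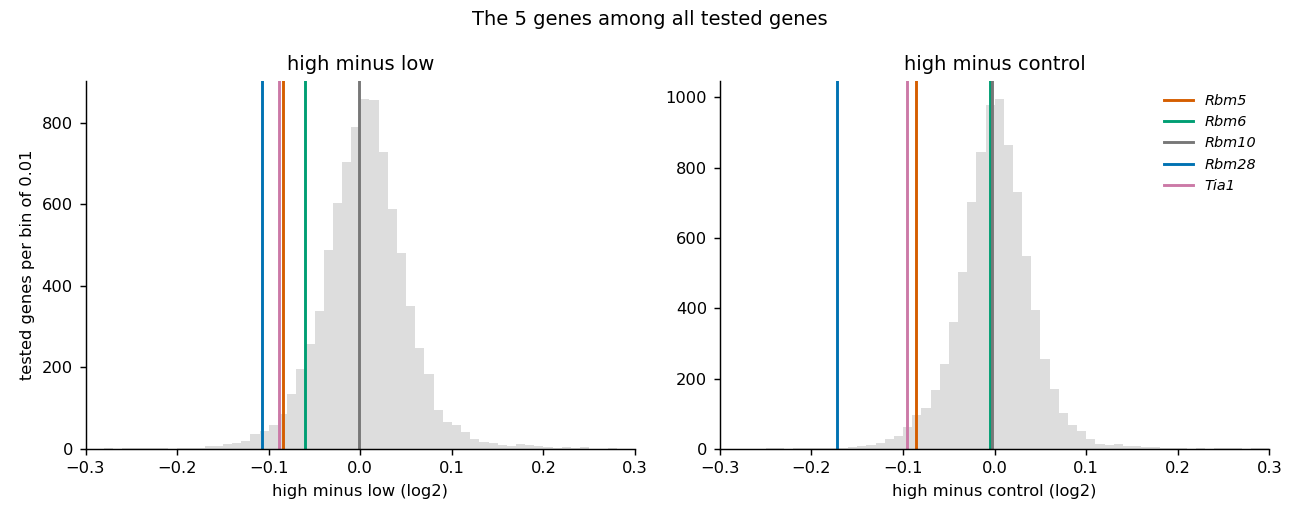
Histograms of the high minus low and high minus control differences (log2) of 8485 tested genes, with the 5 genes as vertical lines. Rbm28 stands farthest left in both panels, and Rbm10 lies near the middle of both.

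Of the 5 genes, 0 were called by limma with Benjamini-Hochberg adjustment at an adjusted p under 0.17, in the F-test or any diet contrast. The share called over all genes was also 0%, in the F-test and in each of the 3 contrasts. At an unadjusted p under 0.05 stood 4.62% of all genes in the F-test, 7.22% in high minus low, 4.63% in high minus control and 2.27% in low minus control. All 5 genes had their lowest mean on the high diet, against 33.9% of all genes, but the high minus control difference of *Rbm6* and of *Rbm10* turned positive (+0.0080 and +0.010) when arrays were centred on their medians. Every high-diet rat lay below the control mean for 3 of the 5 (*Rbm5*, *Rbm28*, *Tia1*), against 1.33% of all genes, and below the low mean for 2 of the 5 (*Rbm5*, *Tia1*), against 1.36%. Because these contrasts entered the choice of the genes, nothing is read from those shares. High minus low and high minus control share the high-diet rats, so the same direction in both is not separate evidence.

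The tail mark gave a contrast that the choice of genes had not used, and none of the 5 genes differed by it beyond the spread between rats. *Rbm5* averaged 10.19 ± 0.06 in marked and 10.20 ± 0.05 in unmarked rats, and *Tia1* 10.19 ± 0.07 in marked and 10.21 ± 0.07 in unmarked rats (SD, n = 13 each). With diet in the limma model, marked minus unmarked was -0.0053 log2 for *Rbm5* (SE 0.018, adjusted p = 0.988) and -0.019 for *Tia1* (SE 0.023, adjusted p = 0.952). It was -0.031 for *Rbm28* (interval -0.10 to 0.039, limma adjusted p = 0.952), -0.019 for *Rbm10* (interval -0.070 to 0.032) and -0.0019 for *Rbm6* (interval -0.045 to 0.041). In limma 0% of all genes were called by tail mark, and 5.32% had an unadjusted p under 0.05. Within diets the marked minus unmarked difference of *Rbm28* was -0.10 on low, +0.033 on control and -0.031 on high, and that of *Tia1* -0.088, +0.026 and -0.0025 in the same order.

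Paired by cage over the 12 cages with both mates, marked rats were lower than their mates in 8 pairs for *Rbm5*, 7 for *Rbm6*, 9 for *Rbm10*, 9 for *Rbm28* and 7 for *Tia1*, and none of the 5 was called in that limma fit (lowest adjusted p = 0.871).

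Cage mates were about as far apart as other rats of their diet. Over 12 pairs of mates and 88 other pairs within diets, the mean absolute difference of *Rbm5* was 0.043 log2 between mates and 0.046 between other rats. It was 0.107 and 0.103 for *Rbm28*, 0.062 and 0.065 for *Tia1*, 0.050 and 0.053 for *Rbm6*, and 0.059 and 0.072 for *Rbm10*, mates first.

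**Figure D4:**
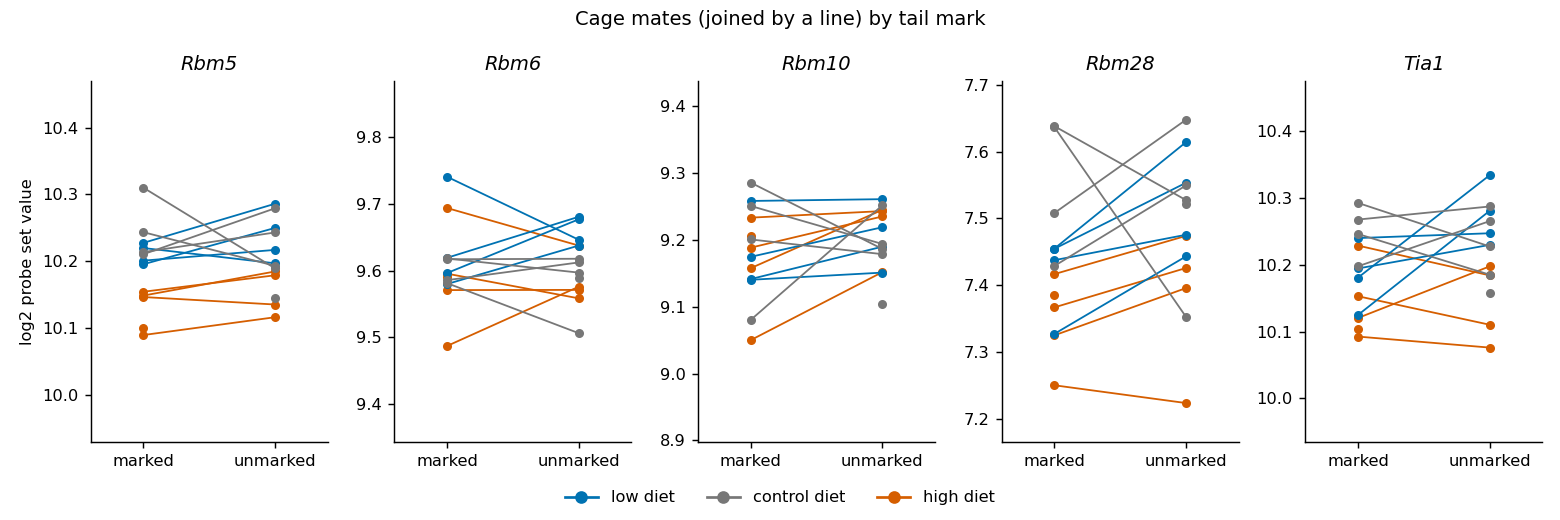
Log2 probe set values of marked and unmarked rats, with a line joining cage mates and colour for the diet, every panel spanning the same log2 range. Lines run in both directions for each gene, and the mean distance between mates was widest for Rbm28, at 0.107 log2.

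Within diets, rats with more *Tia1* tended to have more *Rbm5*, a relation on which the choice of genes did not rest. After removal of the diet means, Pearson's r of *Rbm5* and *Tia1* over 26 rats was 0.517 (permutation p = 0.00688, adjusted p = 0.0688 over 10 pairs of genes) and Spearman's rho 0.631 (permutation p = 0.00073, adjusted p = 0.0073). The rank relation passed an adjusted p of 0.05 and Pearson's r did not. The rank relation missed it with quantile normalization (rho = 0.518, permutation adjusted p = 0.0759) and with centred arrays (rho = 0.538, permutation adjusted p = 0.0502). Without the 2 rats farthest from the median, r was 0.50 (permutation p = 0.0128, adjusted p = 0.064). It was 0.433 within low, 0.684 within control and 0.471 within high rats. Over all tested genes, the within-diet r reached 0.759 with *Rbm5* (*Ccdc50*) and 0.775 with *Tia1* (*Tfam*), so such an r is not particular to this pair. The share of all genes with an r as high as that of the pair was not computed. Since mates share a cage, the 14 cage means were also correlated, with r = 0.594 (permutation p = 0.0241, adjusted p = 0.241) and rho = 0.466 (permutation p = 0.095). Leaving out the 2 cages farthest from the median of *Rbm5* gave r = 0.230 (permutation p = 0.471), so that r over cages depended much on those 2. Leaving them out also narrows the range of *Rbm5*.

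*Rbm28* and *Tia1* had a within-diet r = 0.441 (permutation p = 0.0248, adjusted p = 0.124) and rho = 0.471 (permutation p = 0.0161, adjusted p = 0.0806), with r = 0.524 without the 2 farthest rats. Within control rats this r was -0.020, against 0.698 within low and 0.687 within high. With quantile normalization the r of this pair was 0.306 (permutation adjusted p = 0.646). Over the 14 cage means it was 0.445 (permutation adjusted p = 0.355), and 0.259 without the 2 farthest cages. *Rbm5* and *Rbm28* had r = 0.121 (permutation p = 0.558, adjusted p = 0.797; rho = 0.149). *Rbm5* and its overlapping neighbour *Rbm6* had r = -0.201 (permutation p = 0.325, adjusted p = 0.541; rho = -0.232). Within diets this r was 0.302 on low, -0.204 on control and -0.627 on high. Over the 14 cage means it was -0.381 (permutation p = 0.178, adjusted p = 0.355), and -0.621 without the 2 farthest cages (permutation p = 0.0301, adjusted p = 0.301). Of the other 6 pairs of genes, r lay between -0.086 and 0.364, and 0 had an adjusted permutation p under 0.05 by Pearson's or Spearman's measure. With the diet means left in, r was 0.745 for *Rbm5* and *Tia1* and 0.659 for *Rbm28* and *Tia1*, values that contain the diet differences by which the genes were chosen.

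**Figure D5:**
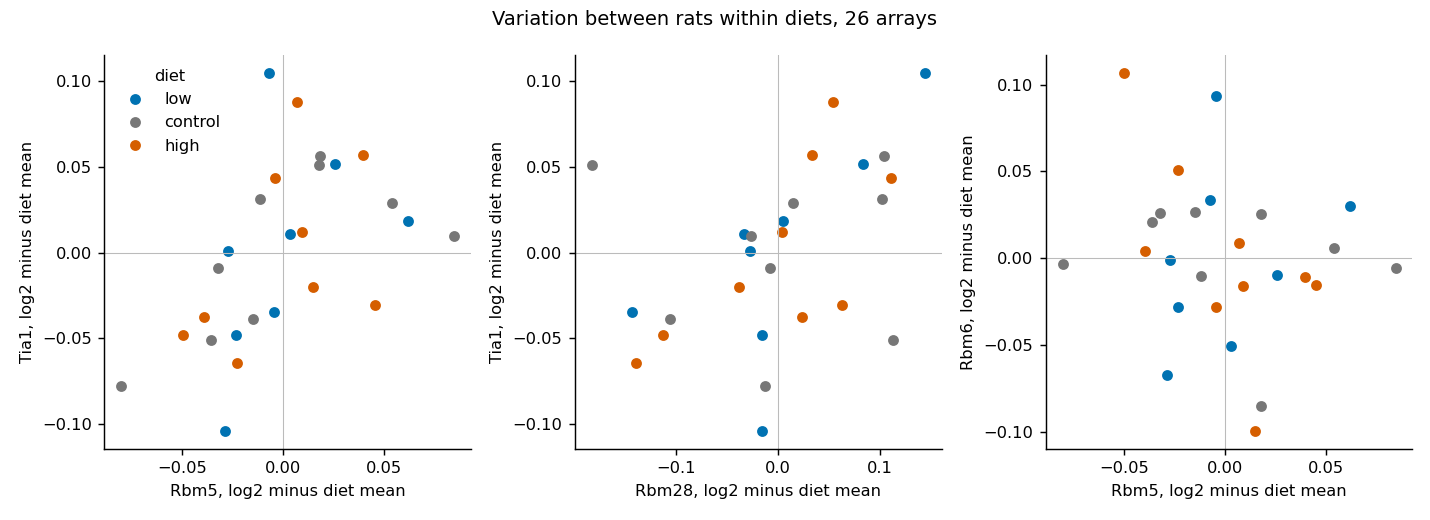
Deviation of each rat from its diet mean (log2) for 3 pairs of genes, coloured by diet. Points run upward for Rbm5 against Tia1 (r = 0.517), less so for Rbm28 against Tia1 (r = 0.441), and show no rising trend for Rbm5 against Rbm6 (r = -0.201).

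The genes whose pattern within diets was most like each chosen gene were found over all tested genes and 26 arrays, as a description. Arrays and tissue samples are shared by all genes, so depth of hybridisation and tissue makeup are common to the points. For *Rbm5* these were *Ccdc50* (r = 0.759), *Adgrl4*, an endothelial adhesion receptor (r = 0.712), and *Srsf7*, a serine- and arginine-rich splicing factor (r = 0.710). For *Tia1* they were *Tfam*, which packages and transcribes mitochondrial DNA (r = 0.775), *Sfswap*, a splicing regulator (r = 0.765), and *Nsd3*, a histone methyltransferase (r = 0.739). For *Rbm28* they were *Ercc6*, a remodeller in transcription-coupled repair (r = 0.821), *Inpp5b*, an inositol phosphatase (r = 0.742), and *Ssbp1*, a mitochondrial DNA-binding protein (r = 0.731). With the diet means left in, r of these genes with their chosen gene ran from 0.566 (*Ssbp1*) to 0.813 (*Sfswap*). In high minus control, the genes most like *Rbm5* differed by -0.038 log2 (*Ccdc50*), -0.099 (*Adgrl4*) and -0.079 (*Srsf7*). Those most like *Tia1* differed by -0.019 (*Tfam*), -0.062 (*Sfswap*) and -0.057 (*Nsd3*), and those most like *Rbm28* by -0.014 (*Ercc6*), -0.049 (*Inpp5b*) and -0.0013 (*Ssbp1*). In high minus low, *Ccdc50* differed by +0.0029, and the other 8 by between -0.15 (*Adgrl4*) and -0.013 (*Inpp5b*).

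Of the genes that flank the members without being members, 4 were tested beside *Rbm6*, *Rbm10* and *Tia1*. *Mon1a*, next to *Rbm6*, differed by +0.029 log2 (SE 0.037) in high minus control, and *Pcyox1*, next to *Tia1*, by +0.018 (SE 0.027). *Uba1* and *Ndufb11*, which flank *Rbm10*, differed by +0.025 (SE 0.024) and -0.012 (SE 0.028). The flanking genes *Sema3f*, *Lep*, *Prrt4* and *C4h2orf42* were not among the tested genes, so that *Rbm28* had no tested neighbour and *Rbm5* none besides *Rbm6*.

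Other genes of the same processes were taken from 6 lists that leave out the members and share a few genes with each other, and 0 genes of any list were called in limma in any contrast. Of the splicing regulators, 33 of 51 tested had lower means in high minus low, against 44.8% of all genes tested, and 34 of 51 in high minus control, against 49.4%. Their median differences were -0.017 and -0.0060 log2, against +0.0053 and +0.00043 over all genes. At an unadjusted p under 0.05, 1 had a lower and 1 a higher mean in high minus low, where 2.72% of all genes were lower and 4.5% higher. In high minus control 2 had lower and 0 higher means, where 2.45% of all genes were lower and 2.18% higher. *Hnrnpu*, a nuclear scaffold ribonucleoprotein, differed by -0.057 (SE 0.022) and *Elavl4*, the neuronal protein HuD, by +0.16 (SE 0.060) in high minus low. *Hnrnpm* differed by -0.11 (SE 0.046) and *Tra2a*, a splicing activator, by -0.055 (SE 0.025) in high minus control.

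Of 21 tested genes of the wider RBM family, 12 had lower means in high minus low and 13 in high minus control, with medians of -0.0028 and -0.010. *Rbm11*, a brain-rich splicing regulator, differed by +0.12 in high minus low and +0.096 in high minus control, *Rbm45* by -0.054 in high minus low and *Rbm12* by -0.062 in high minus control. Of 26 genes of the early spliceosome, which meets the splice sites with which TIA1 and RBM5 work, 13 were lower in each contrast, with medians of -0.00041 and -0.0027. The U1-associated *Luc7l* differed by -0.068 in high minus low and -0.098 (SE 0.035) in high minus control, *Luc7l3* by -0.083 in high minus low, and *Snrnp70*, a core U1 protein, by -0.064 in high minus control. Of 41 nucleolar factors of large-subunit assembly, the process of RBM28, 22 were lower in each contrast, with medians of -0.0012 and -0.0055. *Las1l*, which processes the internal spacer of ribosomal RNA, differed by -0.10 (SE 0.035) in high minus control. The helicase gene *Ddx56* differed by +0.072 in high minus low and +0.063 in high minus control, and *Gnl3l* by +0.052 in high minus low.

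Of 33 stress granule genes, the setting in which TIA1 is best known, 22 had lower means in high minus low and 15 in high minus control, with medians of -0.0046 and +0.0012. *Hdac6*, a cytoplasmic deacetylase, differed by +0.069 and +0.077, *Zfp36*, which destabilises AU-rich transcripts, by -0.16 (SE 0.099) in high minus low, and *Eif3b* by +0.040 in high minus control. Of 8 tested genes whose splicing is known from human or mouse cells to respond to RNA-binding proteins of this kind, 5 were lower in high minus low and 3 in high minus control, with medians of -0.0091 and +0.0033. *Bcl2l1*, the apoptosis regulator with long and short splice forms, differed by +0.12 (SE 0.042) and +0.066 (SE 0.041), *Atp2c1* by -0.021 in high minus low and *Nf1* by +0.031 in high minus control. The smallest limma adjusted p among the genes named from these lists was 0.674 in high minus low and 0.991 in high minus control. In low minus control, lower means were found for 11 of 21 RBM genes, 19 of 26 early spliceosome genes, 27 of 51 splicing regulators, 12 of 33 stress granule genes, 25 of 41 nucleolar factors and 3 of 8 splicing targets, against 55.9% of all genes. At an unadjusted p under 0.05, 1 nucleolar factor had a lower mean there and no listed gene a higher one, where 1.61% of all genes were lower and 0.66% higher.

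Of the markers looked up for the labelled tissue, 6 of 6 neuronal genes, 3 of 4 of the dentate gyrus, 4 of 4 of CA1 and 4 of 4 of CA3 passed the intensity filter. So did 4 of 6 markers of neighbouring cortex and 2 of 5 of thalamus, so that passing the filter does not tell hippocampus from its surroundings. Markers of vessels and of neighbouring cortex differed in the same contrasts as the 3 chosen genes, with 0 of them called. At an unadjusted p under 0.05, 4 of 6 endothelial genes had lower means in high minus control and 2 of 6 in high minus low, 1 of 3 and 2 of 3 mural genes likewise, and 3 of 4 and 4 of 4 cortical genes had higher means. Of all genes, 2.45% were lower and 2.18% higher at that threshold in high minus control, and 2.72% lower and 4.5% higher in high minus low. All 6 endothelial genes had lower means in high minus control (median -0.097 log2) and 5 of 6 in high minus low (median -0.080), and their mean per rat ran from 8.25 to 8.42 on low, 8.28 to 8.45 on control and 8.21 to 8.35 on high. All 3 tested mural genes had lower means in both contrasts (medians -0.056 against low and -0.048 against control). Their mean ran from 9.17 to 9.33 on low, 9.17 to 9.33 on control and 9.11 to 9.23 on high. All 4 tested cortical genes had higher means in both (medians +0.11 against low and +0.12 against control), and their mean ran from 10.46 to 10.62 on low, 10.42 to 10.65 on control and 10.44 to 10.75 on high. The part of tissue makeup in the differences of *Rbm5*, *Rbm28* and *Tia1* was not tested. For high minus control, the medians of the other marker lists were +0.0091 for neurons, +0.031 for the dentate gyrus, -0.015 for CA1, +0.026 for CA3, -0.010 for astrocytes, +0.010 for oligodendrocytes, +0.0028 for microglia and +0.094 for the 2 tested thalamic genes. For high minus low they were +0.0076 for neurons, -0.015 for the dentate gyrus, -0.057 for CA1, -0.0035 for CA3, -0.011 for astrocytes, -0.0045 for oligodendrocytes, -0.029 for microglia and +0.24 for thalamus. Of the 4 CA1 genes, 3 had lower means in high minus low, 1 of them at an unadjusted p under 0.05. Of the 2 thalamic genes, 1 was lower and 1 higher in each contrast, and 1 was higher at that threshold in each. At the same threshold, 1 of 5 astrocyte genes was lower in high minus control. In high minus low, 1 of 6 neuronal and 1 of 4 CA3 genes were higher. The CA3 gene is *Elavl4*, already named among the splicing regulators, so it is the same observation. Of 5 choroid plexus markers only *Ttr*, the transthyretin gene, passed the filter, and it ran from 7.61 to 10.06 on low, 6.69 to 12.91 on control and 6.79 to 11.05 on high.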

How the data were processed

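Hippocampal RNA, extracted with TRIzol per the labels' protocols, was measured on 26 arrays, 1 per rat. The deposited table holds log2 values of 29214 probe sets made by the authors, and the tools named, per the submitters' processing notes, are Partek 6.6 and GCRMA, whose roles are not given in the sources used here. It has 0 missing values and 0 identical arrays. Values lie between 4.28 and 15.4. The platform annotation gave 1 symbol to 15310 probe sets, several to 323 and none to 13581. Of the first, 15279 were found in RefSeq GRCr8, with 0 symbols updated. The probe set of highest mean stood for each of 14506 genes, and the 8485 genes whose mean reached 6.94, which is the probe set median, were tested.

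limma 3.58.1 in R 4.3.3 fitted the 3 diets over all 26 arrays, with moderated standard errors, 95% intervals and Benjamini-Hochberg adjustment over all tested genes. The call threshold, an adjusted p under 0.17, is the stricter rate of the series design. For the tail mark, the model held mark and diet. Correlations between genes used diet-mean residuals and 2-sided tests of 100000 permutations, adjusted over 10 pairs. The procedures were tested on simulated data.

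The members and lists were chosen with earlier results of these data known. Genes named were the members, the 2 genes of smallest p per list and contrast with the high diet, the 3 genes of highest r with each of *Rbm5*, *Rbm28* and *Tia1*, and flanking genes. Alternatives covered filters, scaling, cage, array weights, priors, samples, tail mark, values over 2 SD, moderation and each array left out.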

Additional observations from a re-analysis of the deposited data

Results flagged for a closer look

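Among 15 sets of values (5 genes on 3 diets), 2 held a rat that stood apart from the others of its diet, and chance marks about 1 set in 20. Control rat 15 had an *Rbm6* value of 9.51, lying 0.075 log2 below the next control rat, a gap of 0.670 of the range of that group. Without it, the low minus control difference of *Rbm6* was +0.045 log2 and high minus control -0.015. High rat 18 had an *Rbm10* value of 9.05, lying 0.102 log2 below the next high-diet rat, a gap of 0.522 of the range. Without it, high minus control of *Rbm10* was +0.015 and high minus low +0.016. *Rbm5*, *Rbm28* and *Tia1* had no such rat on any diet.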

How the results depend on the processing

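In high minus low and high minus control, *Rbm5*, *Rbm28* and *Tia1* kept a lower high-diet mean under every planned setting that tested them. The same held with every rat left out. With 1 rat left out, high minus control ran from -0.096 to -0.075 for *Rbm5*, from -0.19 to -0.15 for *Rbm28* and from -0.11 to -0.088 for *Tia1*. These contrasts had chosen the 3 genes, so the unchanged direction is no separate evidence. The stricter intensity filter, at 9.20, left out *Rbm10* and *Rbm28*. Between diets no paired analysis was possible because subject numbers are used once each and cages hold 1 diet. With marked and unmarked mates paired by cage as a block, a fit added after seeing the data (12 pairs), the tail mark difference was -0.0091 for *Rbm5*, -0.0027 for *Rbm6*, -0.029 for *Rbm10*, -0.037 for *Rbm28* and -0.024 for *Tia1*. The limma adjusted p lay between 0.871 and 0.989, and the pairing changed no call of these 5 genes. No other probe set carried the symbol of a member alone, so that comparison was not run.

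Over all genes, limma called 0 by diet, but 1 in high minus low with quantile normalization, with centring on array medians or with the tail mark as a covariate. With values over 2 SD removed, 17 were called in the F-test, 30 in high minus low and 15 in high minus control. Removing the values farthest from their diet mean lowers the spread within diets, which by itself favours calls. Among these 15 were *Rbm5* (adjusted p = 0.159) and *Rbm28* (adjusted p = 0.141), genes that the same contrast had picked. For *Rbm28* 0 values were removed on any diet. For *Rbm5* 1 low-diet value was removed, and the 3 diets share 1 estimate of spread per gene. The adjusted p of both also depends on the values removed from all other genes. In the other settings no member was called. With 1 rat left out, the counts ran from 0 to 3 in the F-test and in high minus low and from 0 to 1 in high minus control, and no member was among the calls. In high minus low there were 2 without low rat 2, 1 without low rat 3, 2 without control rat 17, 1 without high rat 22 and 3 without high rat 25. The F-test had 1 without control rat 17 and 3 without high rat 25, and high minus control 1 in each of these.

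The tail mark difference turned positive for *Rbm5* with quantile normalization (+0.0066), array weights (+0.0052) and values over 2 SD removed (+0.00018), and for *Rbm6* with quantile normalization (+0.0070) and centring (+0.0018), at limma adjusted p values of 0.970 or above. With 1 rat left out it ran from -0.014 to +0.00018 for *Rbm5* and from -0.011 to +0.0060 for *Rbm6*. The gap of *Rbm5* between high and low rats was 0.0108 log2 as deposited, 0.0046 after centring, where 2 genes did not overlap, and -0.0093 after quantile normalization, settings chosen after seeing the data.

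Within-diet r of *Rbm6* and *Rbm10* was 0.0011, but -0.056 without the 2 farthest rats and -0.14 with quantile normalization. With diet means kept, r was 0.087 for *Rbm5* and *Rbm6*, 0.013 for *Rbm6* and *Rbm28*, 0.114 for *Rbm6* and *Tia1*, 0.514 for *Rbm5* and *Rbm28* (permutation, adjusted p = 0.0247), 0.745 for *Rbm5* and *Tia1* and 0.659 for *Rbm28* and *Tia1*. The cause of these changes was not tested.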
